A study of Mus musculus with 71 samples.

Results

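The dopamine receptors are a family of 5 genes, written in the deposited tables as Drd1a (an older symbol of Drd1), Drd2, Drd3, Drd4 and Drd5. They were taken by symbol from each of the 6 tables, where they are 5 of 37681 genes. RNA-seq was measured in 71 libraries of wild-type C57BL/6 mice, male and female. The libraries came from the nucleus accumbens (NAc), the ventral tegmental area (VTA) and the prefrontal cortex (PFC). The cocaine groups had self-administered intravenous cocaine at 0.7 mg/kg per infusion in 21 daily sessions, and the saline groups had self-administered saline in its place. Tissue was taken after 1 or 28 days of abstinence. The methods of the study give the age of the mice as 8 weeks. Their age when tissue was taken is not given in the sources used here. Mice of both treatments had first been trained for food in 10 sessions and fitted with a jugular catheter, so surgery and training were shared by both treatments. The comparison with saline therefore cannot show effects of surgery or training. Each region was punched, 2 or 1.2 mm wide, from 1 mm sections. Each group held 6 libraries, except the saline group of the VTA at 28 days, which held 5. The labels do not say whether libraries of a group came from separate mice, so p-values measure the spread between these libraries, which may in part be technical.

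Dopamine receptors are G protein-coupled receptors of 2 classes. The D1-like receptors, encoded by Drd1a and Drd5, couple to stimulatory G proteins and raise cAMP, and the D2-like receptors, encoded by Drd2, Drd3 and Drd4, couple to inhibitory G proteins and lower it. In the striatum, the D1 and D2 receptors are known as marks of different medium spiny neurons, the main projection neurons there. In the midbrain, the D2 receptor is also an autoreceptor on the dopamine neurons themselves. Cocaine blocks dopamine reuptake and so increases the dopamine that reaches these receptors.

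The genes differ in structure and position. In mm9, the build of the tables, Drd1a (ENSMUSG00000021478) lies at chr13:54146555-54151027 on the minus strand in 2 exons, and Drd5 (ENSMUSG00000039358) at chr5:38710748-38713549 on the plus strand in 1 exon. Drd2 (ENSMUSG00000032259), with 8 exons once transcripts are merged, lies at chr9:49148732-49216282. Drd3 (ENSMUSG00000022705), with 7, lies at chr16:43762334-43823045, and Drd4 (ENSMUSG00000025496), with 4, at chr7:148477929-148482362, all 3 on the plus strand. The whole of each gene was counted, so the short and long splice forms of the D2 receptor are not told apart. The lincRNA gene Gm16766 overlaps Drd5 on the other strand and the miRNA gene CT025520.1 overlaps Drd3. The strand used in counting is not given in the sources used here, so the values of Drd5 and Drd3 could hold reads of those genes.

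The sequences just before the start sites of the 3 receptors on which the comparisons turn are shown because their base composition differs widely. Each is the 250 bases before a RefSeq start site in GRCm38.p6, 5′ to 3′ on the strand of its gene, with matches to the GC box (GGGCGG on either strand) in capitals. Drd1a is chr13:54055659-54055908 on the minus strand, Drd2 is chr9:49340153-49340402 and Drd3 is chr16:43761971-43762220, both on the plus strand.
Drd1a: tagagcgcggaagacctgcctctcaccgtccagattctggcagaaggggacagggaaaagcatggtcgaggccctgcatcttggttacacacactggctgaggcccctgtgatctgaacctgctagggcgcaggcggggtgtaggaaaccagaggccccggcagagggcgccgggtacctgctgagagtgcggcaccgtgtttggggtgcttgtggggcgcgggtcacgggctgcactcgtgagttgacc
Drd2: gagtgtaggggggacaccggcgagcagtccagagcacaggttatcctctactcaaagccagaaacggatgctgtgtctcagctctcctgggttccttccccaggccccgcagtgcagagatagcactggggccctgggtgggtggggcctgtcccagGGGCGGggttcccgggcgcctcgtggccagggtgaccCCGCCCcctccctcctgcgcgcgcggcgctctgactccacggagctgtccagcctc
Drd3: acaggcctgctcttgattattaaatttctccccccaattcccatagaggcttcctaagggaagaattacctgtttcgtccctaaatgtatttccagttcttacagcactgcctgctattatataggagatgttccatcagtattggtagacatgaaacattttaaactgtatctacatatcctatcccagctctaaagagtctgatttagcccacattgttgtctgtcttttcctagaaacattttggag
The Drd3 sequence had a GC content of 39.2%, against 64% for Drd1a and 68.8% for Drd2. Drd2 held 2 GC boxes and neither Drd3 nor this start site of Drd1a held one, where 32.7% of 32851 mouse promoters of the same length held at least 1. A further start site of Drd1a, inside the gene as the tables place it, held 1 GC box, and Drd4 and Drd5 held 3 and 2. The search also covered, on both strands, the binding letters of the Nr4a nuclear receptors (NBRE, AAAGGTCA, in 1.34% of promoters), the cAMP response element (TGACGTCA, in 1.55%) and the TATA box (TATAAA, in 12.4%). None of these 3 was found in the 250 bases of any receptor. A match is a description of letters, and its absence from this window says nothing about the factor.

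Sequencing depth ranged from 20971967 to 49700932 reads in genes per library. Markers of the labelled tissue were high in their own region. Ppp1r1b, which encodes DARPP-32 of the medium spiny neurons, was at 420.1 to 1362 RPKM (reads per kilobase of gene, scaled to the depth of the library) in the NAc and at 15.3 to 41.8 in the VTA. Th, the rate-limiting enzyme of dopamine synthesis, was at 102.6 to 651.6 RPKM in the VTA and at no more than 10.0 RPKM elsewhere. Slc17a7, a vesicular glutamate transporter of cortical excitatory neurons, was at 337.8 to 647.1 RPKM in the PFC, but also at 1.98 to 245 RPKM across NAc libraries. Some libraries stood apart from their group. Saline library 4 of the PFC at 28 days held 459.6 RPKM of Ppp1r1b, against 38.8 to 56.8 in the other 11 libraries of that table, and 491 RPKM of Penk, a peptide precursor of D2-type medium spiny neurons, against 14.2 to 32.2. Its cortical excitatory marker sum was lower than in the others, at 497.1 RPKM against 682.5 to 826.8. Saline library 1 of the VTA at 28 days differed from the other 4 of its group by a median chi-square per gene of 15.7 to 26.0 in counts, where those differed from each other by 2.54 to 6.76. It held 61.1 RPKM of Tac1, a peptide precursor of D1-type medium spiny neurons, against 9.84 to 16.4 in the other saline and 21.9 to 56.0 in the cocaine libraries, and 1.40 RPKM of Slc17a7, against 18.3 to 74.8 and 1.09 to 15.9. By the same measure cocaine library 5 of the PFC at 1 day stood apart less far, at 3.45 to 4.38 against 1.13 to 2.35. Receptor differences that these libraries enter are also given without them where a call, a direction or the size changed.

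The receptors differed widely in level, both from each other and between regions. In the NAc, Drd1a and Drd2 stood far above the rest. In saline mice at 1 day, Drd1a was at 88.0 ± 10.9 RPKM (SD, n = 6), from 75.6 to 103.1 with a median of 89.7, and Drd2 was at 66.3 ± 10.6, from 54.5 to 78.0 with a median of 66.1. The ranges of the pair overlapped. Drd3 followed at 4.64 ± 1.29 RPKM, from 3.07 to 6.55, and Drd5 at 1.46 ± 0.258, from 1.11 to 1.75. Their ranges did not overlap each other or those of Drd1a and Drd2. Drd4 had 1 to 4 reads per saline library. Drd1a made up 54.9% and Drd2 41.3% of the summed receptor RPKM in these libraries.

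At 28 days the order of the leading receptors of the NAc was the opposite, in both treatments. Drd2 was at 102.3 ± 17.9 RPKM in saline mice (SD, n = 6), from 77.2 to 122.9, and Drd1a was at 75.9 ± 12.4, from 56.6 to 88.4. Drd2 had been the lower of the pair in every library at 1 day and was the higher in every library at 28 days. The within-library ratio of Drd1a to Drd2 ran from 1.13 to 1.82 across the 12 NAc libraries at 1 day and from 0.689 to 0.835 across the 12 at 28 days. Each time point is a table of its own, made separately by the authors, so abstinence, age and table cannot be told apart, and no test was made between them.

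In the VTA, Drd2 was the one abundant receptor. In saline mice at 1 day it was at 53.2 ± 11.9 RPKM (SD, n = 6), from 32.6 to 66.5, and it made up 97.2% of the summed receptor RPKM. Drd1a, at 0.802 ± 0.156 RPKM, lay 66.3 times below it. Drd5 was at 0.479 ± 0.191 and Drd3 at 0.253 ± 0.119 RPKM, and the ranges of neighbours among Drd1a, Drd5 and Drd3 overlapped. Drd4, the lowest, had 0 to 4 reads per saline library. A count of 0 allows up to 3 reads.

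In the PFC, Drd1a led. In saline mice at 1 day it was at 7.53 ± 1.45 RPKM (SD, n = 6), from 5.12 to 8.59. Drd5, at 1.69 ± 0.262 RPKM, and Drd2, at 1.40 ± 0.537, came next with overlapping ranges. Drd5 thus made up 15.8% of the summed receptor RPKM in the PFC and 0.911% in the NAc, although its own level was close in both. Drd4 had 1 to 9 reads and Drd3 0 to 3 reads per saline library, so neither could be compared between treatments at this depth.

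**Figure D1:**
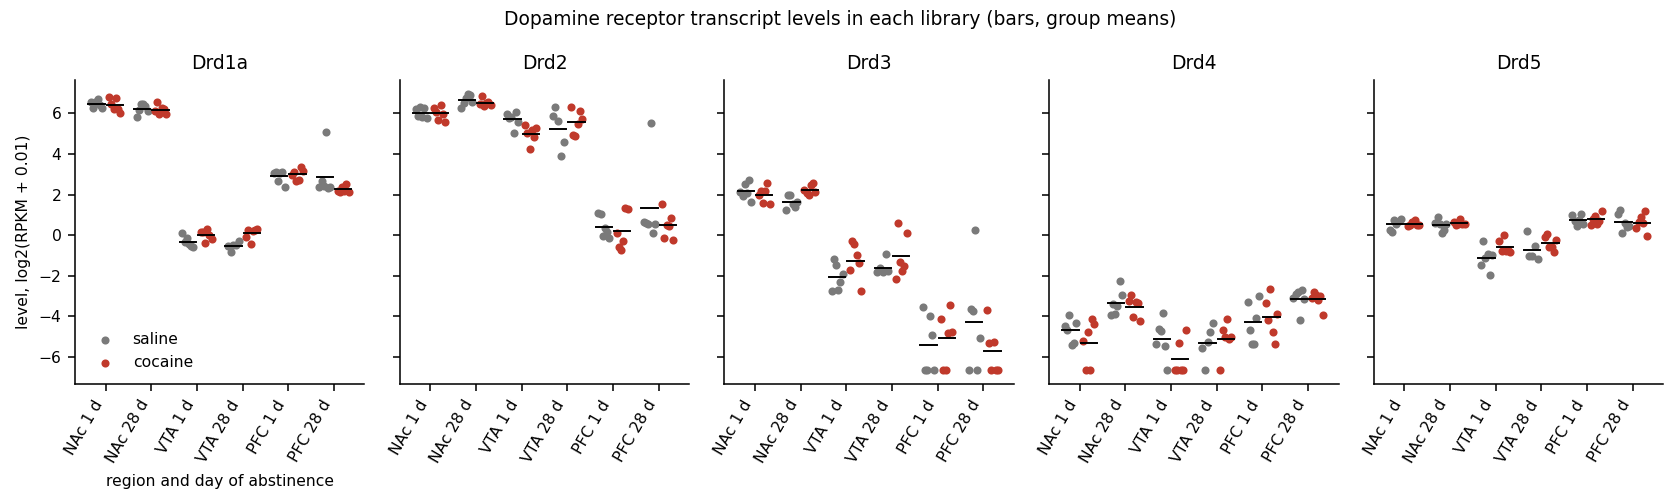
Level of each receptor in every library, as RPKM on a log2 scale after adding 0.01, by region and day of abstinence, with saline in grey and cocaine in red. Drd2 lies near the top in the NAc and the VTA, Drd1a near the top in the NAc and the PFC, and Drd4 near the bottom in all 3 regions, with 1 PFC saline library far above the rest of its group for Drd1a, Drd2 and Drd3.

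Regions were compared in 1 edgeR quasi-likelihood fit over the 17 saline libraries of 28 days, with p-values adjusted by the Benjamini-Hochberg method over 17181 genes. Each region is its own table, so region and table cannot be told apart. The study took all 3 regions from dissected brains, and the column names do not say whether libraries of different regions share mice. The fit held no term for the mouse and treated all libraries as separate. In the NAc, 4 of the 5 receptors were higher than in the VTA, where 29.8% of all genes were. Drd1a was higher by 6.89 on the log2 scale (SE 0.58, edgeR adjusted p = 1.28e-08), which is 118.6-fold. Drd3 was higher by 3.35 (SE 0.73), Drd4 by 2.36 (SE 0.51) and Drd5 by 1.23 (SE 0.25), with edgeR adjusted p of 0.00067, 0.000624 and 0.000338. The Drd4 call rests on low values, with saline means of 0.0999 RPKM in the NAc and 0.0187 in the VTA, a ratio of 5.34. At 1 day its saline means were 0.0313 and 0.0246 RPKM, a ratio of 1.28. Drd2 differed by 1.30 (SE 0.85, edgeR adjusted p = 0.193), but library 4 of the PFC enters this fit through the shared estimate of spread. Without it, Drd2 was higher in the NAc by 1.33 (SE 0.31, edgeR adjusted p = 0.00128), so that all 5 receptors passed, where 31.3% of genes did.

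Against the PFC, the NAc was higher in Drd1a, Drd2 and Drd3, 3 of 5 receptors, where 20.0% of all genes were higher. Drd1a was higher by 2.88 (SE 0.43), Drd2 by 3.49 (SE 0.87) and Drd3 by 3.74 (SE 0.71) on the log2 scale, with edgeR adjusted p of 3.32e-05, 0.00369 and 0.000341. Library 4 of the PFC set the size of these differences. Without it, they were 3.80 (SE 0.13), 6.17 (SE 0.40) and 6.48 (SE 0.41), the same 3 receptors passed, and 21.1% of genes did. Drd3 had 0 to 5 reads in each of the 5 other PFC saline libraries, so its fitted difference depends on the small count that the fit adds. Drd5 differed by -0.23 (95% interval -0.67 to 0.21) and Drd4 by -0.20 (95% interval -0.93 to 0.53), and neither passed. Without library 4 they differed by -0.23 (SE 0.25) and -0.35 (SE 0.36), and neither passed.

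Against the PFC, the VTA was higher in 1 receptor and lower in 3, where 29.8% of all genes were higher and 28.1% lower. Drd2 was higher by 2.19 (SE 0.86, edgeR adjusted p = 0.0362) and, without library 4 of the PFC, by 4.84 (SE 0.38, adjusted p = 1.12e-08). Its call was lost on leaving out any of 8 other libraries, 3 of the VTA, saline library 1 among them, and 5 of the PFC, with differences between 1.87 and 2.16 and adjusted p from 0.056 to 0.0833. Drd1a was lower in the VTA, with a difference of -4.01 (SE 0.52, edgeR adjusted p = 3e-06), or -3.12 (SE 0.14) without the library. Drd4 was lower, at -2.56 (SE 0.50, edgeR adjusted p = 0.000278), and Drd5 was lower, at -1.46 (SE 0.25, adjusted p = 7.23e-05). Without library 4 they were lower at -2.73 (SE 0.48) and -1.49 (SE 0.27). Drd4 was low in both regions, with saline means of 0.0187 RPKM in the VTA and 0.110 in the PFC with library 4. Drd3 differed by 0.39 (SE 0.79, edgeR adjusted p = 0.695) with library 4, and was higher in the VTA by 3.10 (SE 0.47, adjusted p = 2.57e-05) without it. Without it 29.0% of all genes were higher and 28.0% lower in the VTA, and 2 receptors were higher and 3 lower.

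The cocaine libraries of 28 days and the saline libraries of 1 day gave the same directions for Drd1a, Drd2 and Drd3 in each pair of regions. The NAc stood above the VTA in Drd2 by 0.92 (SE 0.23) in the cocaine libraries and by 0.39 (SE 0.16) in the saline libraries of 1 day, with edgeR adjusted p of 0.00178 and 0.0449. Drd4 did not pass the filter on low counts in either of these fits.

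In the NAc at 1 day, cocaine and saline libraries overlapped for every receptor. None of the 4 receptors tested passed (edgeR, Benjamini-Hochberg), where 0.0126% of all genes did, and 0 were at an unadjusted p under 0.05, where 4.01% of genes were. DESeq2 called 0 as well. Drd1a was at 86.8 ± 19.5 RPKM in cocaine mice (SD, n = 6), from 63.8 to 111.7, with a log2 difference from saline near 0 (95% interval -0.28 to 0.27). Drd2, at 64.8 ± 14.3 RPKM, differed by -0.01 (95% interval -0.28 to 0.25). Drd3 differed by -0.16 (95% interval -0.53 to 0.20) and Drd5 by 0.03 (95% interval -0.21 to 0.27). Drd4, with 0 to 4 reads per library, was left out of the main test.

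In the NAc at 28 days, Drd3 showed the widest separation of the treatments. Cocaine libraries held 4.59, 4.19, 3.87, 5.47, 5.86 and 4.31 RPKM and saline libraries 2.35, 3.99, 3.99, 2.93, 2.63 and 3.06. Of the 6 cocaine libraries, 5 lay above all saline libraries, and the groups overlapped through cocaine library 3 and saline libraries 2 and 3. The D3 receptor is known for its enrichment in the ventral striatum and the islands of Calleja. The log2 difference was 0.56 (SE 0.15), or 1.48-fold, with an unadjusted p of 0.00167 and an edgeR adjusted p of 0.592, so that Drd3 did not pass. DESeq2 gave the same difference with an adjusted p of 0.0916. Leaving out each library in turn gave 0.48 to 0.64. Summed D1-type medium spiny markers, given beside it, ran from 402.6 to 523 RPKM in cocaine and from 370.4 to 471 in saline libraries, and their part in the difference was not tested.

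Of the 4 receptors tested there, 0 passed the edgeR test, where 0% of all genes did, and 1, Drd3, was at an unadjusted p under 0.05, where 6.76% of genes were. DESeq2 called 0 of them. Drd2 was at 92.0 ± 11.4 RPKM in cocaine mice (SD, n = 6), from 81.6 to 113.7, against 77.2 to 122.9 in saline mice, a log2 difference of -0.16 (95% interval -0.40 to 0.07). Drd1a, at 73.0 ± 11.7 RPKM, differed by -0.07 (95% interval -0.31 to 0.18) and Drd5, from 1.38 to 1.70 RPKM, by 0.08 (95% interval -0.14 to 0.31). The treatment groups overlapped for all 3.

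The cocaine difference in Drd3 was -0.16 at 1 day and 0.56 at 28 days. In 1 edgeR model over the 24 NAc libraries, the change between time points was 0.74 (SE 0.25) with an unadjusted p of 0.00735 and an adjusted p of 0.846. None of 4 receptors passed, where 0.0181% of all genes did, and 1, Drd3, was at an unadjusted p under 0.05, where 5.27% of genes were. DESeq2 called 0 receptors in this comparison.

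In the VTA at 1 day, Drd2 was the 1 receptor of the 3 tested with a lower mean in cocaine than in saline mice. Cocaine libraries held 42.9, 32.9, 18.6, 35.8, 28.6 and 39.3 RPKM and saline libraries 61.3, 54.3, 56.4, 32.6, 66.5 and 48.1. Of the 6 saline libraries, 5 lay above all cocaine libraries, and the overlap came from saline library 4. The log2 difference was -0.70 (SE 0.20) on log2(RPKM + 0.1), that is 1.62 times lower in cocaine mice, with an unadjusted p of 0.00431 and a limma adjusted p of 0.155. Drd2 therefore did not pass. On the whole reads recovered from RPKM, edgeR gave -0.74 with an adjusted p of 0.115, and leaving out each library gave -0.83 to -0.54. Of 3 receptors tested, 0 passed, where 0.0665% of all genes did, and 1 was at an unadjusted p under 0.05, where 15.7% of genes were. edgeR on recovered reads also called 0.

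Markers of dopamine neurons moved beside Drd2. Their sum over 14 genes, all detected, ran from 724.5 to 1745 RPKM in cocaine libraries and from 1182 to 2776 in saline libraries. Th ran from 102.6 to 275.3 RPKM in cocaine and from 154.4 to 372.5 in saline libraries, a log2 difference of -0.60 (two-sided exact permutation p = 0.0584). Slc6a3, the dopamine transporter and the target of cocaine, differed by -0.84 (exact permutation p = 0.0173). The log2 ratio of Drd2 to Th was -2.57 ± 0.0867 in cocaine and -2.47 ± 0.135 in saline libraries (SD, n = 6 each), a difference of -0.10 (exact permutation p = 0.165). The ratio of Drd2 to Slc6a3 differed by 0.14 (exact permutation p = 0.0693). These ratio differences had opposite signs, and that of Drd2 itself was -0.70. The part of dopamine neuron content in the Drd2 difference was not tested. In bulk tissue, fewer cells of a type and less RNA per cell cannot be told apart. The cortical excitatory sum ran from 16.0 to 83.0 RPKM in cocaine and from 9.50 to 37.8 in saline libraries, and its part in the result was not tested.

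**Figure D2:**
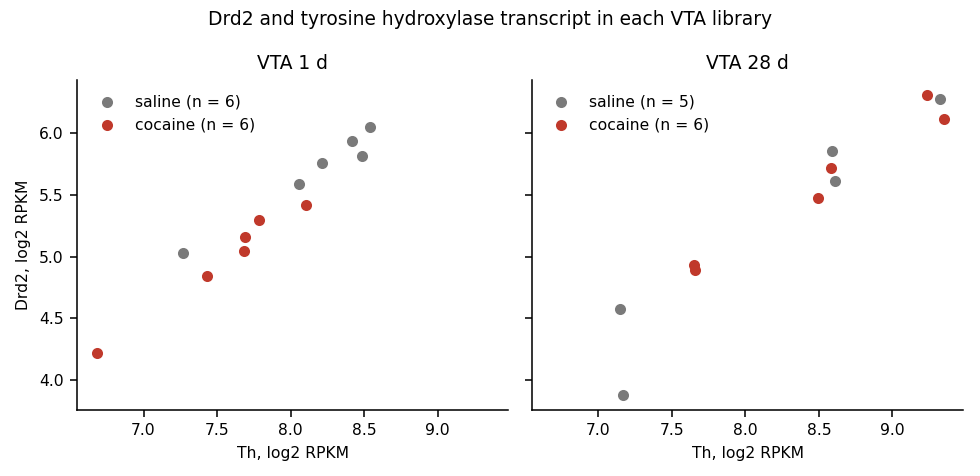
Drd2 (vertical axis) against Th (horizontal axis), both in log2 RPKM, in each VTA library at 1 day (left) and 28 days (right), with saline in grey and cocaine in red. The libraries of both treatments lie along 1 line, and at 1 day the cocaine libraries lie mostly at its lower left.

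After centring each treatment on its own mean, Drd2 and Th correlated across the 12 VTA libraries of 1 day with Pearson's r = 0.98 (permutation p = 3e-05, adjusted over 20 relations 0.00015) and Spearman's rho = 0.94 (permutation p = 5e-05, adjusted 0.000333). Without the 2 libraries farthest from the median, r was 0.93. At 28 days, over 11 libraries, r was 0.96 (permutation p = 0.00021, adjusted 0.0007) and rho was 0.91 (permutation p = 0.00136, adjusted 0.00453), and r without the 2 farthest was 0.98. Drd2 and Slc6a3 correlated with r = 0.99 at 1 day (permutation p = 2e-05, adjusted 0.00015, rho = 0.98, permutation p = 2e-05, adjusted 0.0002) and 0.97 at 28 days (permutation p = 3e-05, adjusted 0.00015, rho = 0.94, permutation p = 0.00029, adjusted 0.00116). Without the 2 farthest, r was 0.96 and 0.94. These libraries share a punch of small size, and both genes of each pair were read in the same library.

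Drd1a, Drd5 and Drd3 had higher cocaine than saline means in the VTA at 1 day, and none passed. Drd4 had 0 to 2 reads in cocaine and 0 to 4 in saline libraries there and was left out of the main test. Drd1a was at 1.01 ± 0.165 RPKM in cocaine mice (SD, n = 6), from 0.767 to 1.21 with a median of 1.05, against 0.802 ± 0.156 in saline mice, from 0.658 to 1.07 with a median of 0.755. This rests on 61 to 124 reads per library, and the difference was 0.30 (SE 0.15, limma adjusted p = 0.364). Drd5, at 0.682 ± 0.181 against 0.479 ± 0.191 RPKM, differed by 0.47 (SE 0.23, limma adjusted p = 0.356). Drd3 had 5 to 27 reads in cocaine and 5 to 15 in saline libraries and was left out of the main limma test by its filter. On recovered reads it differed by 0.85 (SE 0.40, edgeR adjusted p = 0.306). These values are low enough that the added 0.1 RPKM shrinks the limma differences.

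At 28 days, Drd2 in the VTA varied too widely within each treatment for a difference to be seen. Cocaine libraries held 79.4, 30.4, 29.7, 44.4, 69.6 and 52.6 RPKM and saline libraries 57.9, 77.8, 48.9, 14.7 and 23.9. The groups overlapped over nearly their whole range, and the log2 difference was 0.18 (95% interval -0.62 to 0.98). The dopamine neuron sum was as variable, from 950.1 to 2743 RPKM in cocaine and from 726.8 to 2890 in saline libraries. The log2 ratio of Drd2 to Th differed by 0.01 (exact permutation p = 0.974) and that of Drd2 to Slc6a3 by -0.09 (exact permutation p = 0.533).

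Drd1a was the receptor that separated the treatments in the VTA at 28 days. Cocaine libraries held 0.925, 1.18, 0.735, 1.16, 1.20 and 1.24 RPKM and saline libraries 0.671, 0.550, 0.705, 0.701 and 0.820. Of the 6 cocaine libraries, 5 lay above all saline libraries, and cocaine library 3 lay within the saline range. The log2 difference was 0.63 (SE 0.16), or 1.54-fold, with an unadjusted p of 0.00198 and an edgeR adjusted p of 0.389. DESeq2 gave 0.63 with an adjusted p of 0.0452, so the call depends on the tool. DESeq2 called 0.380% of all genes there. Without saline library 1 it was 0.63 (SE 0.17, edgeR adjusted p = 0.121). Over the alternatives tried with edgeR, leaving out each library included, the difference stayed between 0.57 and 0.71 and did not pass. It rests on 55 to 163 reads per library. Summed D1-type medium spiny markers ran from 30.1 to 71.9 RPKM in cocaine and from 16.1 to 76.8 in saline libraries. The 76.8 was saline library 1, and the other 4 held 16.1 to 25.3. The cortical excitatory sum ran from 13.5 to 30.2 RPKM in cocaine libraries, against 14.1 in saline library 1 and 33.5 to 95.2 in the other 4. The D2-type sum overlapped, at 34.5 to 69.9 in cocaine and 32.8 to 75.7 in those 4. The part of these markers in the difference was not tested.

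Of the 4 receptors tested in the VTA at 28 days, 0 passed the edgeR test, where 0% of all genes did, DESeq2 called 1, and 1 was at an unadjusted p under 0.05, where 11.5% of genes were. Drd3 was high in cocaine libraries 2 and 6, at 1.48 and 1.07 RPKM, and at 0.217 to 0.387 in the other 4, against 0.273 to 0.508 in saline libraries. Its difference of 0.90 (SE 0.50, edgeR adjusted p = 0.476) ran from 0.46 to 1.11 when each library was left out, with the lowest value well under the full one. Drd5, at 0.778 ± 0.188 RPKM (SD, n = 6) against 0.646 ± 0.301 (SD, n = 5), differed by 0.26 (95% interval -0.27 to 0.80). Saline library 1 held 1.16 RPKM of Drd5, where the other saline libraries held 0.432 to 0.680. Without it the difference was 0.59 (SE 0.21), with an unadjusted p of 0.0174 and an edgeR adjusted p of 0.167. Drd2 differed by 0.30 (SE 0.45) without it.

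Between time points, the cocaine difference in VTA Drd2 changed by 1.03 (SE 0.48), with an unadjusted p of 0.0419 and a limma adjusted p of 0.354 over 23 libraries. None of 3 receptors passed, where 0% of all genes did, and 1 was at an unadjusted p under 0.05, where 13.4% of genes were. On counts and recovered reads, edgeR left 0 receptors at an unadjusted p under 0.05, with Drd2 at 0.91 (SE 0.46, unadjusted p = 0.0608). The 13.4% of the limma fit does not apply to that fit, whose own share is not given here. For Drd1a the change was 0.26 (SE 0.21) and for Drd5 it was -0.18 (SE 0.34). Without saline library 1 of 28 days the change was 1.18 (SE 0.49, limma adjusted p = 0.183) for Drd2, 0.25 (SE 0.22) for Drd1a and 0.03 (SE 0.31) for Drd5.

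In the PFC at 1 day, no receptor passed. Drd1a was at 8.05 ± 1.53 RPKM in cocaine mice (SD, n = 6), from 6.23 to 10.2 with a median of 8.21, against a range of 5.12 to 8.59 in saline mice. The log2 difference was 0.10 (95% interval -0.18 to 0.38). Drd2, from 0.601 to 2.52 RPKM in cocaine and from 0.913 to 2.11 in saline libraries, differed by -0.18 (95% interval -0.84 to 0.48), and Drd5 by 0.03 (95% interval -0.22 to 0.29). Of these 3 receptors 0 passed limma's test, where 0.00693% of all genes did, and 0 were at an unadjusted p under 0.05, where 3.78% of genes were. edgeR on recovered reads also called 0. Without cocaine library 5 the differences were 0.03 (SE 0.14) for Drd1a, -0.40 (SE 0.31) for Drd2 and 0.05 (SE 0.14) for Drd5, and none passed.

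In the PFC at 28 days, the values of the receptors turned on saline library 4. It held 33.2 RPKM of Drd1a, against 4.33 to 6.27 in the other 11 libraries, and 45.9 RPKM of Drd2, against 0.848 to 2.93. Drd3 was at 1.17 RPKM, or 68 reads, where the others had 0 to 5 reads. Drd5, at 1.49 RPKM, lay within the range of the others, 0.960 to 2.32, and Drd4 below theirs. The receptors that were high in this library are also the 3 that were higher in the NAc than in the PFC, with or without this library. Why this library held more of the striatal markers was not tested.

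With this library, Drd2 differed between cocaine and saline mice by -2.56 (SE 0.95) and Drd1a by -1.08 (SE 0.44) on the log2 scale, both with an edgeR adjusted p of 0.842. Without it, the difference in Drd2 was 0.12 (SE 0.25, edgeR adjusted p = 0.984) and that in Drd1a -0.17 (SE 0.08, adjusted p = 0.967). Cocaine libraries then held 4.77 ± 0.550 RPKM of Drd1a (SD, n = 6) and saline libraries 5.40 ± 0.499 (SD, n = 5). Drd4 and Drd5 differed by -0.02 (95% interval -0.57 to 0.52) and -0.04 (95% interval -0.44 to 0.37) with it, and by -0.19 (SE 0.25) and -0.05 (SE 0.22) without it. Of 4 receptors 0 passed edgeR's test with or without it, where 0% of all genes did with it. At an unadjusted p under 0.05 there were 2 with it, Drd1a and Drd2, where 5.66% of genes were. Without it there were 0, and the 5.66% does not apply to that fit, whose own share is not given here. DESeq2 gave no p for Drd1a, Drd2 and Drd3, as it does for genes with an outlying library, and called 0 of the others.

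Between time points, none of 3 PFC receptors passed limma's test, where 0.0142% of all genes did, and 0 were at an unadjusted p under 0.05, where 4.21% of genes were. On counts and recovered reads, with library 4, edgeR called 0 receptors. Drd1a and Drd2 were there at an unadjusted edgeR p of 0.026 and 0.034. The 4.21% of the limma fit does not apply to this fit, and its own share is not given here, so these cannot be set against it. The change in Drd1a was -0.71 (SE 0.43) with library 4 and -0.28 (SE 0.18) without it. For Drd2 it was -0.63 (SE 0.86) with it and 0.19 (SE 0.46) without it. With it, edgeR on counts and recovered reads gave larger changes, -1.17 (SE 0.50) for Drd1a and -2.51 (SE 1.12) for Drd2, with adjusted p of 0.993 and 0.994.

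**Figure D3:**
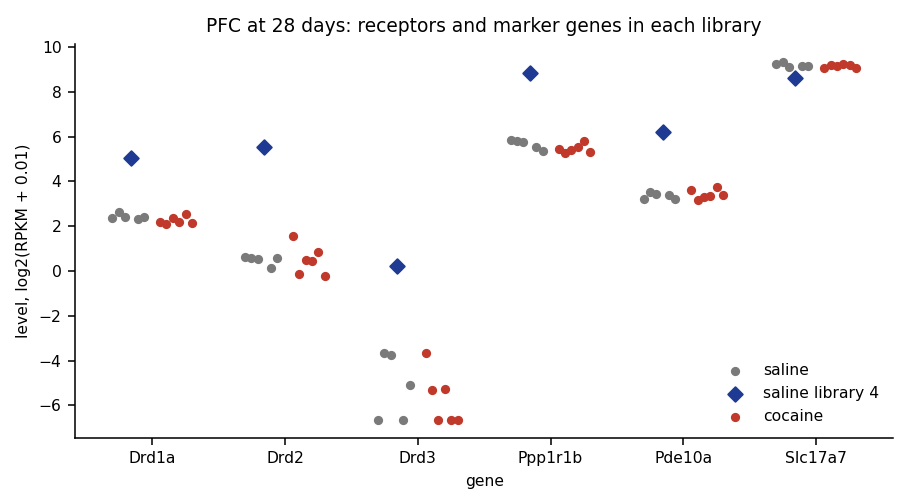
RPKM on a log2 scale, after adding 0.01, of the receptors and of striatal and cortical marker genes in the 12 PFC libraries of 28 days, with saline library 4 marked. Library 4 stands above the other 11 for Drd1a, Drd2, Drd3 and the striatal markers, and below them for Slc17a7.

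**Figure D4:**
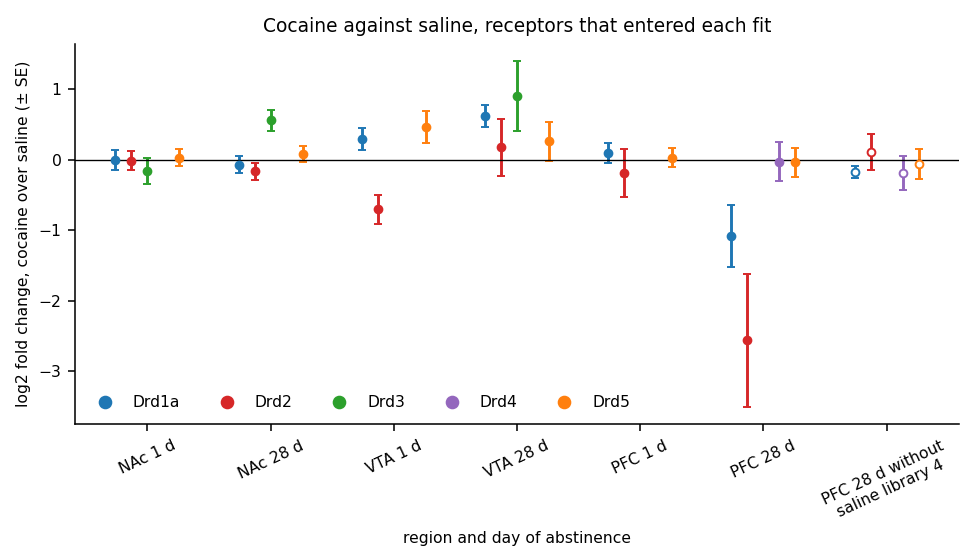
Log2 difference of cocaine from saline for each receptor tested in each region and time point, with bars of 1 SE, and open circles for the PFC at 28 days without saline library 4. Differences lie within 1 of 0 except for Drd1a and Drd2 in the PFC at 28 days, which move close to 0 without the library.

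The balance of Drd1a and Drd2 within a library does not depend on the scaling of libraries. It was compared by a two-sided exact permutation test in each of the 6 tables, adjusted over them. In the VTA at 1 day, the log2 ratio of Drd1a to Drd2 was -5.00 ± 0.329 in cocaine and -6.04 ± 0.382 in saline libraries (SD, n = 6 each). Cocaine libraries lay from -5.50 to -4.60 and saline libraries from -6.62 to -5.48. The difference was 1.04 (exact permutation p = 0.00433, adjusted 0.026), with 6 of 6 cocaine libraries above the saline mean and 5 above all saline libraries. Leaving out each library gave 0.92 to 1.15. The ratio sets a receptor of the dopamine neurons against 1 of low level in this region, so the dopamine neuron markers given with Drd2 stand beside it too.

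In the other 5 tables the ratio did not pass. It differed by 0.01 in the NAc at 1 day (exact permutation p = 0.983), by 0.09 in the NAc at 28 days (exact p = 0.0909) and by 0.29 in the VTA at 28 days (exact p = 0.591). In the PFC it differed by 0.31 at 1 day (exact p = 0.368) and by 0.22 at 28 days (exact p = 0.673). In the NAc the SDs of the log2 ratio were 0.123 in cocaine and 0.24 in saline libraries at 1 day, and 0.063 and 0.098 at 28 days. Drd1a and Drd2 correlated in the NAc at 28 days with r = 0.94 over 12 libraries centred by treatment (permutation p = 0.00019, adjusted 0.0007, rho = 0.93, permutation p = 0.00024, adjusted 0.00116), and r was 0.82 without the 2 farthest. At 1 day r was 0.76 (permutation p = 0.0136, adjusted 0.0219, rho = 0.77, permutation p = 0.0106, adjusted 0.0176), and 0.64 without them.

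**Figure D5:**
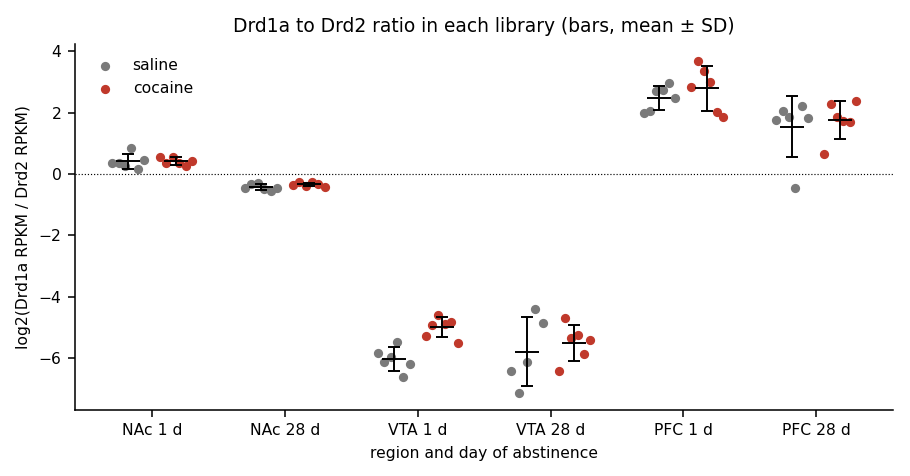
Log2 ratio of Drd1a to Drd2 RPKM in each library by region and day, saline in grey and cocaine in red, with bars for mean ± SD and a dotted line at equal levels. NAc libraries lie just above the line at 1 day and just below it at 28 days, VTA libraries lie far below it and PFC libraries above it except saline library 4 at 28 days.

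Drd2 and Drd1a were each set against 1 peptide precursor of their cell type in the NAc, and the opposite pairs were not computed. Drd1a and Drd2, of different cell types, also correlated with each other there, with r = 0.76 at 1 day and 0.94 at 28 days. Slc17a7 ran from 1.98 to 245 RPKM across NAc libraries, and the part of tissue content in these relations was not tested. Drd2 and Penk correlated with r = 0.89 at 1 day (permutation p = 0.0014, adjusted 0.004, rho = 0.83, permutation p = 0.00416, adjusted 0.0112) and 0.91 at 28 days (permutation p = 1e-05, the smallest that the resamples can give, adjusted 0.00015, rho = 0.94, permutation p = 1e-05, adjusted 0.0002). Without the 2 farthest libraries r was 0.81 and 0.83. Drd1a and Tac1, the precursor of substance P, correlated with r = 0.83 at 1 day (permutation p = 0.00439, adjusted 0.01, rho = 0.78, permutation p = 0.00838, adjusted 0.0168) and 0.72 at 28 days (permutation p = 0.0114, adjusted 0.0208, rho = 0.64, permutation p = 0.0355, adjusted 0.0507). Without the 2 farthest r was 0.72 and 0.52. Drd3 and Drd1a correlated with r = 0.38 at 1 day (permutation p = 0.25, adjusted 0.313, rho = 0.43, permutation p = 0.189, adjusted 0.223) and 0.36 at 28 days (permutation p = 0.289, adjusted 0.34, rho = 0.38, permutation p = 0.244, adjusted 0.271), and 0.73 and 0.31 without the 2 farthest. In the PFC at 28 days, r between Drd1a and Drd2 was 0.95 (permutation p = 0.0304, adjusted 0.0435, rho = 0.89, permutation p = 0.0114, adjusted 0.0176) and was 0.33 without the 2 farthest libraries, 1 of them library 4, so that relation rests on them. At 1 day r was 0.69 (permutation p = 0.014, adjusted 0.0219), and 0.63 without the 2 farthest. Drd1a and Ppp1r1b correlated in the PFC with r = 0.77 at 1 day (permutation p = 0.00861, adjusted 0.0172) and 0.99 at 28 days (permutation p = 0.00452, adjusted 0.01). Without the 2 farthest, library 4 among them at 28 days, r was 0.82 and 0.63. In the VTA, Drd1a followed neither Ppp1r1b nor Slc17a7, with r from -0.48 to 0.32 and adjusted permutation p from 0.175 to 0.636.

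The genes whose pattern over the 35 libraries of 28 days was most like each receptor were ranked by the root mean square difference of centred log2 CPM, among 17679 genes. For Drd1a they included Car12, Ppp1r1b, Gng7 and Pdyn, at 0.66 to 0.73. For Drd2 they were C130060K24Rik, Gpr101, Clic6, Prlhr and Calcr, at 0.58 to 0.96. For Drd3 they were Slc35d3, Tmem90a, Upb1, Scube3 and Clic6, at 0.70 to 0.85. Drd5, whose level varied least between regions, had closer neighbours, namely Fam171a2, Syt5, Ccdc103, Gm88 and Matk at 0.26 to 0.29. For Drd4 they were Plekhg5, Hlf, Pxdn, Htr1f and Acap3, at 0.45. Clic6 stood in the lists of both Drd2 and Drd3, and no other gene was shared. Without library 4 of the PFC, an alternative added after seeing the data, all 5 genes were the same for Drd1a, Drd2, Drd3 and Drd5, and 3 of 5 for Drd4.

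The receptors act through a common set of partners, here 86 genes in 5 lists of G protein subunits, cAMP and PKA, DARPP-32 and phosphatases, desensitization and scaffolding, and downstream channels and kinases. None passed the test in any comparison of cocaine with saline or of time points, with 85 or 86 tested in each (edgeR or limma, Benjamini-Hochberg). DESeq2 called 0 of them in the NAc and in both 28-day tables of the other regions, and edgeR on recovered reads called 1, the calcium channel gene Cacna1c, in the VTA at 1 day and 0 in the PFC. Cacna1c was named after its value was seen. At an unadjusted p under 0.05, 14 were higher and 6 lower in the VTA at 1 day and 10 higher and 1 lower there at 28 days, where 15.7% and 11.5% of all genes were. Such shares in this paragraph hold both directions. By direction, 1678 of 15042 genes were higher and 688 lower in the VTA at 1 day. At 28 days 860 of 16937 genes were higher and 1082 lower. In the NAc 2 were higher and 0 lower at 1 day and 2 higher and 3 lower at 28 days, where 4.01% and 6.76% of all genes were. In the PFC 1 was higher and 2 lower at 1 day and 1 higher and 4 lower at 28 days, where 3.78% and 5.66% were. Without library 4 of the PFC at 28 days, 1 was higher and 0 lower, and the 5.66% does not apply to that fit, whose own share is not given here.

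Between regions, many partners differed. In the NAc, 52 of 86 were higher and 16 lower than in the VTA, where 29.8% of all genes were higher and 32.6% lower. Without library 4 of the PFC, which enters through the shared spread, 52 were higher and 14 lower, against 31.3% and 31.1% of all genes. Of the 15 genes of the DARPP-32 list, which carries the D1 signal to phosphatases in medium spiny neurons, 13 were higher and 0 lower, with a median difference of 1.70 against -0.03 over all genes tested. Arpp21, a cAMP-regulated phosphoprotein, was higher by 5.00 (SE 0.29, edgeR adjusted p = 1.24e-10) and Cdk5r1, the activator of the kinase Cdk5, by 1.70 (SE 0.10). The cAMP list had 12 of 21 higher and 7 lower. In it, the phosphodiesterase Pde2a and the PKA subunit Prkar2b were higher by 2.51 and 1.94, and the adenylyl cyclase Adcy8 and the PKA subunit Prkaca were lower, at -2.25 and -0.61. Among scaffolding and desensitization genes 12 of 20 were higher and 2 lower. Rgs14 and Rgs4, regulators of G protein signalling, were higher by 6.51 and 2.12, and Nsf and the beta-arrestin Arrb2 were lower, at -0.24 and -0.38.

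The channel and kinase list had 9 of 15 higher in the NAc than in the VTA and 2 lower. The phospholipase Plcb1 was higher by 2.15. Both of the lower genes, Kcnj6 at -2.69 and Kcnj5 at -1.75, encode potassium channels that G proteins gate. G protein subunits had 6 of 15 higher and 5 lower. The beta subunits Gnb2 and Gnb5 were higher by 0.96 and 1.51, and the stimulatory alpha subunit Gnas and the gamma subunit Gng2 were both at -1.32.

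Against the PFC, 29 partners were higher and 26 lower in the NAc, where 20.0% of all genes were higher and 20.7% lower. Without library 4 the counts were 30 and 26, against 21.1% and 19.8% of all genes. The DARPP-32 list had 9 of 15 higher and 0 lower with a median of 0.66 against 0.02 over all genes, and in it the phosphatase regulators Ppp1r2 and Ppp2r5d were higher by 1.49 and 0.82. Without library 4 that list had 10 higher and 0 lower, with a median of 0.76. Gnal, which encodes the G protein that couples the D1 receptor in the striatum, was higher by 1.97 (SE 0.24, edgeR adjusted p = 3.54e-06) and Gnb5 by 0.90, while Gng2 and Gnas were lower, at -1.65 and -1.03. These belong to a list with 4 of 15 higher and 7 lower. In the cAMP list, with 8 of 21 higher and 9 lower, Prkar2b and the phosphodiesterase Pde4b were higher by 1.16 and 0.58 and the adenylyl cyclases Adcy1 and Adcy2 were lower, at -2.14 and -1.24. Of the desensitization list, 5 of 20 were higher, with Rgs8 at 1.39 and Rgs2 at 1.32, and 6 were lower, with the receptor kinase Adrbk1 at -0.92 and Nsf at -0.61. Of the channel list, 3 of 15 were higher, with Kcnj5 at 0.76, and 4 were lower, with the potassium channels Kcnj9 and Kcnj3 at -1.87 and -1.94.

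In the VTA, 8 partners were higher and 56 lower than in the PFC, where 29.8% of all genes were higher and 28.1% lower. Without library 4 the counts were 7 and 52, against 29.0% and 28.0% of all genes, and the median of the cAMP list was -0.36 in place of -0.60. The 10 DARPP-32 genes that passed were lower, with Cdk5r1 at -1.58 and the phosphatase scaffold Ppp1r9b at -1.55, as Drd1a was. Only Gnai2, an inhibitory subunit, was higher among the G proteins, by 0.43, against 9 lower with Gna11 at -0.71 and Gnao1 at -0.56. The cAMP list had 4 of 21 higher, with Pde1c at 1.03 and Prkaca at 0.35, and 12 lower, with Adcy1 at -3.67 and Pde2a at -2.02. Of the channel list, 1 of 15 was higher, Kcnj5 by 2.51 (SE 0.24), and 11 were lower, with Gsk3a at -0.64. Of the desensitization list, 14 of 20 were lower, with Rgs14 at -5.42 and Dnajc14 at -0.50. In that list 2 were higher, Rgs8 by 0.53 and the scaffold Flna by 0.90, but Flna did not pass without library 4 (0.89, edgeR adjusted p = 0.0607) and turned to -0.30 with the 1-day saline libraries.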

How the data were processed

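The authors aligned reads with STAR 2.4.1d to mm9, per the submitters' processing notes, and deposited unscaled gene counts for both NAc tables and the 28-day VTA and PFC tables. The 1-day tables of the VTA and PFC were deposited as RPKM, in which the authors divided counts by gene length and library size. The counting tool, its strand setting and the preparation batches are not given in the sources used here. The tables also hold the authors' own fold changes and p-values, which were not used, and 30 further columns of values per library that belong to no labelled sample and were not used.

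Counts were tested with edgeR 4.0.16 in R 4.3.3 (filterByExpr, TMM scaling, glmQLFit and glmQLFTest), cocaine against saline within each table, and SEs were computed from the F statistic. RPKM were tested with limma 3.58.1 after log2(RPKM + 0.1), leaving out genes whose mean was under 0.5. The Benjamini-Hochberg adjustment ran over all genes tested, and an adjusted p under 0.05 was a call. The change of the cocaine difference between time points was an interaction term, in edgeR for the NAc and in limma on RPKM for the VTA and PFC. RPKM of the count tables were computed with the gene lengths that the deposited RPKM imply. In those RPKM, 100% of genes gave whole reads, within 0.01 read, and edgeR on the recovered reads called 55 genes in the VTA and 1 in the PFC at 1 day, against 10 and 1 by limma. DESeq2 1.42.0 and other filters, scalings and pseudocounts were tried, and each library was left out in turn. Confidence intervals of 95% are the difference ± 1.96 SE, which rests on the spread between libraries, and read floors cover counting error only. Single ratios were compared by exact permutation over libraries, and correlations by 100000 permutations.

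All 5 receptors are named in every table. Of each partner list, the 2 genes of lowest adjusted p among those higher and among those lower are named where the list had calls. The 5 nearest genes of each receptor are named. A few genes that these rules would name are not reported here. The receptors, lists and tests were chosen with earlier results of these data known. The scripts were tested on simulated data. At 1 day the labels number the libraries 1 to 6 in each group, but the deviations of same-numbered libraries correlated above 0.1 in only 3, 4 and 1 of 6 pairs of the NAc, VTA and PFC, so they were not treated as pairs. In the 28-day tables the columns name the group and a number that does not match those of the labels, so library numbers are names within a group. Libraries of a group differed by more than counting noise.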

Additional observations from a re-analysis of the deposited data

Results flagged for a closer look

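In 60 groups of libraries (5 receptors in 12 groups), a library was set apart where its gap to the nearest of the others took up more of the group's range than Dixon's 95% limit allows, which chance does in about 1 of 20 groups. There were 6 such values. Of these, 3 belong to saline library 4 of the PFC at 28 days, with 33.22 RPKM of Drd1a, 45.91 of Drd2 and 1.171 of Drd3. In cocaine library 1 of the same table, Drd3 was at 0.06822 RPKM, which is 3 reads. In the NAc at 28 days, cocaine library 2 held 113.7 RPKM of Drd2, where the next library held 92.5. In the VTA at 28 days, saline library 4 held 0.5077 RPKM of Drd3, or 30 reads, where the next held 0.314, and this library had the lowest Drd2 of its group, 14.7 RPKM.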

How the results depend on the processing

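Among comparisons of cocaine with saline and of time points, the number of receptors called changed in 1 case, the VTA at 28 days, where DESeq2 called 1 receptor (Drd1a) and edgeR 0. Between regions it changed only with a library left out, from 4 to 5 for the NAc against the VTA and to between 3 and 5 for the VTA against the PFC. The receptors behind an equal count could differ, since Drd4 did not enter the fits of the cocaine and the 1-day libraries. Over all genes the tools differed more, with 19 calls by DESeq2 against 2 by edgeR in the NAc at 1 day, 11 against 0 there at 28 days, 73 against 0 in the VTA at 28 days and 2 against 0 in the PFC at 28 days. For the VTA at 1 day limma called 10 genes, edgeR on recovered reads 55 and limma with the replicate block 60. No paired analysis was possible in the 28-day tables, because their columns carry no numbers from the labels. At 1 day the replicate block called 0 receptors in the NAc, VTA and PFC. Same-numbered libraries of the NAc correlated between -0.58 and 0.71, those of the VTA between -0.30 and 0.50 and those of the PFC between -0.20 and 0.11, with 3, 4 and 1 of 6 pairs over 0.1.

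Among partner genes, Flna in the VTA against the PFC turned from 0.90 to -0.30 with the 1-day saline libraries and to -0.31 with these and the replicate block, and the cause was not tested. Of 187 receptor values under alternatives that leave out no library, 180 kept their direction and side of the threshold and 7 came to pass. Leaving out each library, 702 of 752 kept both.

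With 1 library left out, the sign turned for these cocaine differences (log2, lowest to highest). In the NAc at 1 day, Drd1a ran from -0.096 to 0.068, Drd2 from -0.10 to 0.061 and Drd5 from -0.029 to 0.098. At 28 days in the VTA, Drd2 ran from -0.038 to 0.50. In the PFC at 1 day, Drd1a ran from -0.0071 to 0.17 and Drd5 from -0.042 to 0.089. In the PFC at 28 days, Drd2 ran from -2.83 to 0.12, Drd4 from -0.19 to 0.092 and Drd5 from -0.16 to 0.10. For the change between time points, Drd1a in the NAc ran from -0.14 to 0.030, Drd5 in the NAc from -0.00083 to 0.15, Drd5 in the VTA from -0.32 to 0.027, Drd2 in the PFC from -0.86 to 0.19 and Drd5 in the PFC from -0.18 to 0.050. The Drd1a to Drd2 ratio difference ran from -0.042 to 0.095 in the NAc at 1 day, from -0.047 to 0.64 in the VTA at 28 days and from -0.19 to 0.44 in the PFC at 28 days. In the NAc at 28 days it ran from 0.067 to 0.12 and passed an unadjusted 0.05 only without saline library 3 (exact permutation p = 0.0238). For the VTA at 28 days, the Drd2 to Th ratio difference ran from -0.085 to 0.095 and that of Drd2 to Slc6a3 from -0.17 to 0.012. For the VTA at 1 day, Drd2 to Th ran from -0.14 to -0.05 and passed without saline library 3, and Drd2 to Slc6a3 ran from 0.10 to 0.18 and passed without cocaine library 6 or saline library 4. These last ratios, and leaving out libraries for the change between time points in the VTA and PFC, were chosen after seeing the data.

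Low counts limit what can be said of Drd4 in all 3 regions and of Drd3 outside the NAc, where a library often held fewer than 30 reads.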
